A study of Mus musculus with 10 samples.

Results

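MicroRNA rows were followed in RNA from the soma and the neurites of N2A (Neuro2a) cells, which come from a mouse neuroblastoma and grow neurites when serum is withdrawn. A row was taken when its gene name began with Mir and a digit or with Mirlet7 and its mean over the 10 libraries was at least 5 TPM (an abundance per transcript length and library total, here as normalized between libraries by the authors). Of 17292 rows with a gene name, 50 carried such a name and 47 passed the minimum. Mir466b-4 and Mir466b-6 held identical values and were counted once, which left 46 rows: 45 precursors and the host transcript Mir17hg. The 3 rows nearest the minimum on the inside were Mir17hg at 6.35 TPM, Mir7115 at 19.998 TPM and Mir3084-1 at 21.3 TPM. On the outside lay the host transcripts Mir22hg at 3.91 TPM, Mir1a-1hg at 3.28 TPM and Mir124a-1hg at 0.66 TPM.

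The cells had been transfected with 1 of 5 plasmids: a DMPK fragment with 0 CTG repeats (labelled DMPKS, CTG0 here), the same with 480 CTG repeats (labelled DT480, CTG480 here), or the tail of Kif1b-beta, Kif1b-alpha or Kif1c (Kif1bβ, Kif1bα and Kif1c tail). The tails lack the motor domain and were used as dominant negatives against kinesin transport, with the Kif1bβ tail as the control of the other tails. The repeats were used to take up MBNL proteins, with CTG0 as the control. Cells grew for 48 h without serum on membranes with 1 µm pores, the wells of a plate were pooled, and a pair of libraries, 1 of soma and 1 of neurites, was made per transfection, without replicates. Transfection was transient, and the share of cells that took up a plasmid was not measured here. Total RNA was depleted of ribosomal RNA and made into directional libraries, and no step that selects small RNA is described, so the rows cannot be read as levels of the mature microRNA.

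A microRNA gene is transcribed as a long primary RNA or as part of a host gene's intron or exon. Drosha and Dgcr8 cut the hairpin (the precursor) from it in the nucleus, exportin 5 carries the hairpin to the cytoplasm, and Dicer cuts it to the mature strand that an Argonaute protein loads. Bases 2 to 8 of the mature strand, the seed, pair with target mRNAs. Precursors and Dicer have been found in axons and dendrites of neurons, where local processing has been studied.

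RefSeq (GRCm38.p6) held a hairpin for 31 of the 46 rows, and 56 mature sequences of 37 rows were used. The sequences below are those of rows that differed between neurites and soma and of the known clusters the results return to. Mir1949 and Mir669h also differed, and no sequence is given for them. The seed is in capitals.
miR-6392-5p: uCUGGCGCccugguccugucagc
miR-25-3p: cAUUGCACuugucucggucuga
miR-8112: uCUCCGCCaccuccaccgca
miR-1898: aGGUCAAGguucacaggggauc
miR-7a-5p: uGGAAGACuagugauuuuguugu
miR-1195: uGAGUUCGaggccagccugcuca
miR-6516-5p: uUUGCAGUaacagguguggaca
miR-18a-5p: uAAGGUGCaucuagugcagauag
miR-19a-3p: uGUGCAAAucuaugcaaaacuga
miR-20a-5p: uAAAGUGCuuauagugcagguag
let-7d-5p: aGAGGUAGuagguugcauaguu
let-7f-5p: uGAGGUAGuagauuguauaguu

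The 56 mature sequences carried 55 different seeds. Only GAGGUAG belonged to more than 1 row, that of let-7d and let-7f. The seeds of miR-18a and miR-20a, from the same cluster, had 6 of 7 bases in common. Exact copies of some mature sequences lay in other GENCODE transcripts: that of miR-3470b (Mir3470b) in transcripts of 590 other genes, that of miR-7a in the Mir7-2 gene, that of let-7f in the Mirlet7f-2 gene and those of miR-3084 in Snora19. The Mir3084-1 row also held the same values as a row named Gm38437. Reads of such rows may be split among copies, and their values are uncertain for that reason.

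The 31 hairpins were 61 to 139 nt long (median 88) with a GC content of 32.5 to 78.6%. A hairpin entry was found for 67.4% of the rows, under the 80% set for a check of length or GC content against localization, so that check is void and no relation is given. By GENCODE, 12 hairpins lay in an intron of a host gene, 11 in an exon of a noncoding transcript (retained introns included), 3 in an exon of a coding transcript and 5 in no host gene. Of these last, Mir18, Mir19a and Mir20a lay inside the Mir17hg transcript (chr14:115042879-115046727). Of the 31 hairpins, 5 of those placed in introns or noncoding exons overlapped an annotated small nuclear or nucleolar RNA, so that reads of the precursor and of the small RNA cannot be told apart there: Mir6516, Mir677, Mir3068, Mir5121 and Mir3084-1.

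The rows were of moderate to high level, though the reads of a row need not come from its precursor. Mir6516 had a mean of 2862 TPM and Mir1949 of 1251 TPM, and together they made up 55.9% of the summed TPM of the 46 rows. The next 6 by mean were Mir1894 (234 TPM), Mir3473f (213 TPM), Mir3064 (206 TPM), Mir5125 (191 TPM), Mir3113 (189 TPM) and Mir669k (162 TPM). In all, 11 rows had a mean of at least 100 TPM, 16 lay between 50 and 100 TPM, 17 between 20 and 50 TPM and 2 below 20 TPM. TPM is per length, so these levels can be compared between rows, with the reserve that estimates for such short transcripts depend on the effective length the authors' program assigned. The 46 rows took between 0.594% and 1.01% of the signal of a library.

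The files give no counts, so the read depth is unknown. Summed TPM was 1045625 to 1183538 in soma and 870745 to 892618 in neurites. Of 14 neuroblastoma and neuron markers 10 had a row and 9 a mean of at least 5 TPM, with a summed level of 862 to 899 TPM in soma and 827 to 857 TPM in neurites. Of 17 markers of other cell types 5 had a row and 2 passed 5 TPM (Acta2 at 89.8 TPM and Myh3 at 82.8 TPM), with a summed level of 153 to 168 TPM in soma and 183 to 205 TPM in neurites. The part of these markers in the results was not tested. In such fractions, less of an RNA per neurite and fewer neurites that hold it cannot be told apart.

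The first question was which rows lay toward neurites or toward soma. The localization ratio, log2 (neurite/soma) with 0.1 TPM added to both values, was fitted by limma over the 5 transfections, with transfection as a block, on all 11486 rows with a mean of at least 5 TPM. Since the 5 pairs are 5 transfections and no replicates, its p is about the spread among transfections. At a Benjamini-Hochberg adjusted p under 0.05, 3 microRNA rows were higher in neurites (Mir8112, Mir25 and Mir6392), 6 were lower (Mir1898, Mir1949, Mir7-1, Mir669h, Mir1195 and Mir6516), and 37 did not pass. These are 6.52% and 13.0% of the 46 rows, beside 13.9% higher and 13.7% lower among all rows tested. The median ratio was −0.21 over the 46 rows and 0.01 over all rows. It was −0.21 over the 496 noncoding rows, −0.92 over 51 C/D box RNA rows (Snord) and −0.53 over 39 H/ACA and Cajal body RNA rows (Snora and Scarna). Of these classes 24.0%, 35.3% and 38.5% were called lower, and 5.44%, 0% and 0% higher. A lean toward soma is thus not particular to the microRNA rows.

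**Figure D1:**
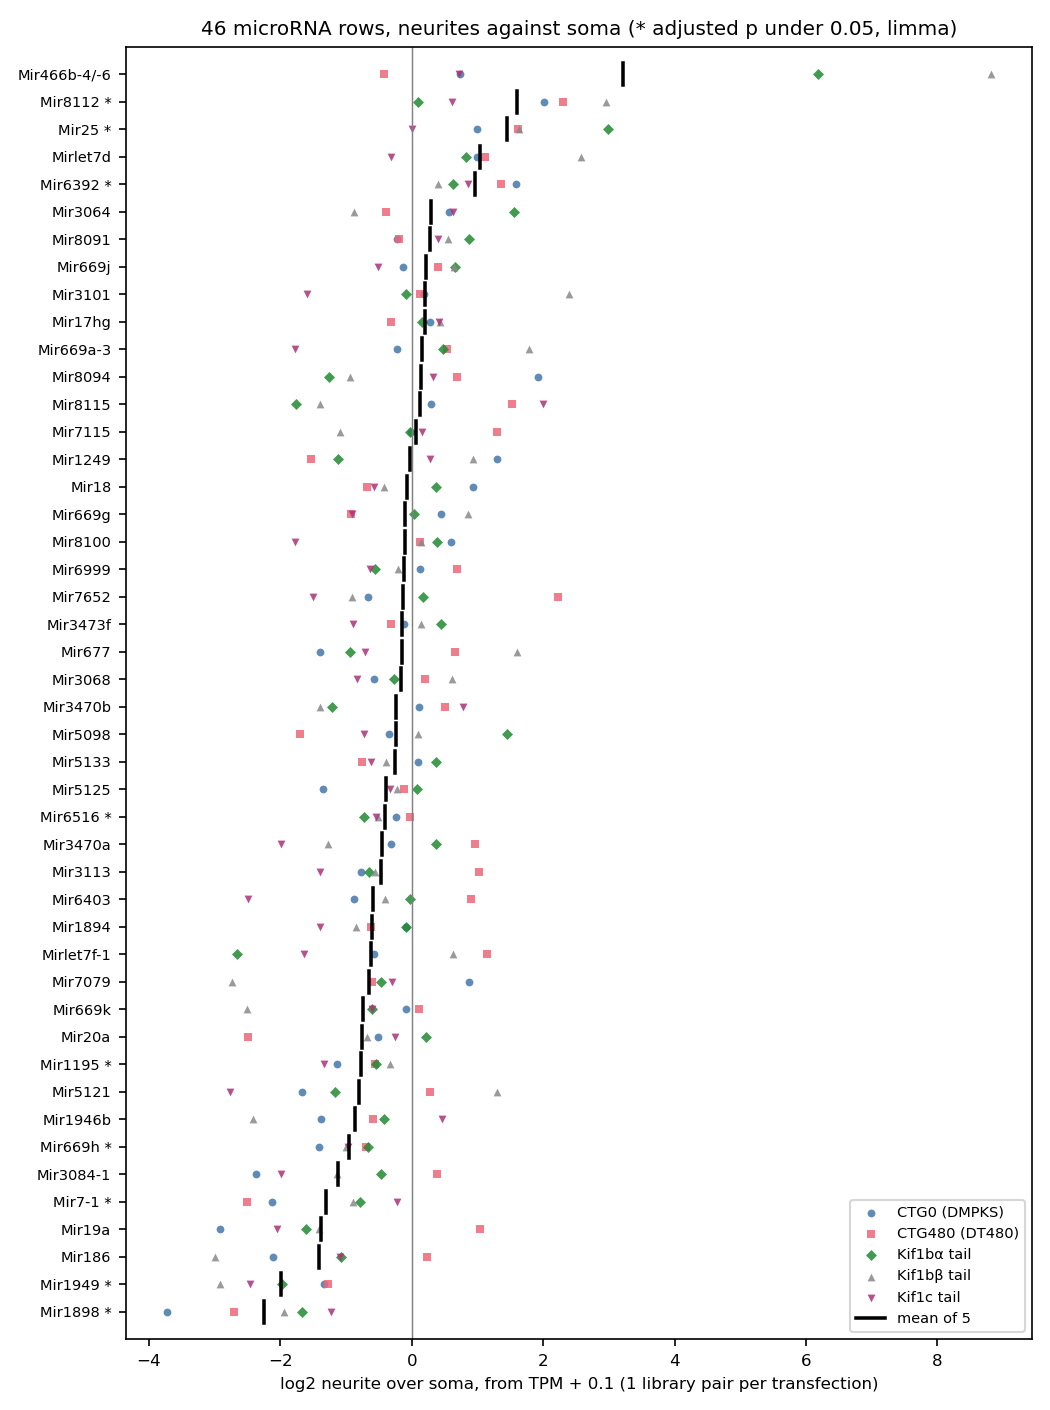
Localization ratio (log2 neurite over soma, x axis) of the 46 microRNA rows (y axis), with 1 point per transfection and a black bar at the mean of 5. The 9 rows with an asterisk passed the limma test, and most of the others have points on both sides of 0.

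The ratio had the same sign in 5 of 5 transfections for 10 rows (21.7%, beside 38.5% of all rows). All neurite libraries lay below all soma libraries for 4 rows (8.70%, beside 12.1% of all rows): Mir1949, Mir1898, Mir669h and Mir6516. All neurite libraries lay above all soma libraries for 0 of the 46 rows, beside 11.3% of all rows. Dividing each library by its sum, in place of the authors' scaling alone, moved the median ratio of all rows from 0.01 to 0.34. Then 7 of the 46 microRNA rows were called higher and 5 lower, beside 6656 higher and 214 lower of all 11486 rows. Directions given here are relative to the authors' normalization.

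Mir1898, which lies in an intron of Zfr (an RNA-binding zinc finger protein) at chr15:12171492-12171574, had the lowest ratio. Its soma values were 70.0 TPM with CTG0, 80.1 with CTG480, 59.0 with the Kif1bα tail, 43.4 with the Kif1bβ tail and 80.6 with the Kif1c tail. Its neurite values, in the same order, were 5.21, 12.2, 18.5, 11.2 and 34.4 TPM. Every neurite library lay below every soma library, and the ratio was −2.25 ± 0.34 (SE, adjusted p = 0.00652, limma).

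Mir1949, the second row by level, had 1156 TPM in soma with CTG0, 1403 with CTG480, 1961 with the Kif1bα tail, 3922 with the Kif1bβ tail and 1699 with the Kif1c tail. In neurites it had 460, 582, 499, 516 and 308 TPM. The soma libraries differed among themselves by more than the neurite libraries did, and the fractions did not overlap (ratio −1.99 ± 0.25, adjusted p = 0.00391, limma).

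Mir669h belongs to the Mir669 family, a set of related mouse hairpins. It had 127 TPM in soma with CTG0, 58.6 with CTG480, 89.5 with the Kif1bα tail, 86.1 with the Kif1bβ tail and 86.5 with the Kif1c tail, and 47.7, 36.0, 56.4, 43.2 and 44.2 TPM in the matching neurites. The fractions did not overlap, and the ratio was −0.95 ± 0.11 (adjusted p = 0.00323, limma). Of the 6 Mir669 and Mir466b rows it was the only one called, and 3 of the 6 had a ratio below 0. Mir669k, with 195 TPM in soma against 129 in neurites, had a ratio of −0.74 ± 0.36 (adjusted p = 0.177), and its fractions overlapped, as did those of Mir669g, Mir669j and Mir669a-3. Near-identical copies in this family make the split of reads among its rows uncertain.

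Mir466b-4, with Mir466b-6 of identical values, was listed at 0 TPM in the soma library of the Kif1bβ tail and at 0.49 TPM in that of the Kif1bα tail. The other soma libraries had 18.9 TPM with CTG0, 26.2 with CTG480 and 21.7 with the Kif1c tail. In neurites it had 31.5 TPM with CTG0, 19.6 with CTG480, 43.1 with the Kif1bα tail, 44.8 with the Kif1bβ tail and 35.9 with the Kif1c tail. It was the only one of the 46 rows listed at 0 in any library, no fold is given against that value, and it did not pass the test (adjusted p = 0.139, limma).

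Mir7-1 encodes miR-7a, a microRNA rich in brain and neuroendocrine cells, from an intron of Hnrnpk (chr13:58392779-58392886). Its soma values were 62.3 TPM with CTG0, 65.9 with CTG480, 49.7 with the Kif1bα tail, 22.0 with the Kif1bβ tail and 23.5 with the Kif1c tail. The neurite values were 14.1, 11.6, 28.7, 11.8 and 20.01 TPM. Neurites were lower in 5 of 5 transfections, but the neurite values with the Kif1bα tail reached above the lower soma values, so the fractions overlapped. The ratio was −1.31 ± 0.34 (adjusted p = 0.0323, limma). It did not pass without the pair of libraries of CTG0 (adjusted p = 0.0897), CTG480 (0.0747), the Kif1bα tail (0.0535) or the Kif1bβ tail (0.0636).

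Mir1195 had 93.9 TPM in soma with CTG0, 33.3 with CTG480, 69.6 with the Kif1bα tail, 75.0 with the Kif1bβ tail and 98.1 with the Kif1c tail, against 42.7, 22.6, 47.9, 59.6 and 38.9 TPM in neurites. The CTG480 pair was lowest in both fractions, and within each pair the neurite value was the lower (ratio −0.78 ± 0.15, adjusted p = 0.0138, limma). Without transfection as a block it did not pass (adjusted p = 0.0848).

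Mir6516, the row of highest level, is annotated in an exon of the noncoding Snhg20 (chr11:117077348-117077457), over a small Cajal body RNA, a class that guides base modification of spliceosomal RNAs. It had 2851 TPM in soma with CTG0, 2638 with CTG480, 3921 with the Kif1bα tail, 3735 with the Kif1bβ tail and 3259 with the Kif1c tail, and 2426, 2587, 2360, 2613 and 2233 TPM in neurites. The fractions did not overlap, though the CTG480 pair was almost level. The ratio of −0.41 ± 0.10 (adjusted p = 0.0285, limma) was the smallest of the 9 called in size, and with each library divided by its sum it was −0.08 (adjusted p = 0.454). It did not pass without the pair of CTG0 (0.0512), the Kif1bα tail (0.0662), the Kif1bβ tail (0.0837) or the Kif1c tail (0.0759). Mir6516 had 60.6 times the mean TPM of its host gene Snhg20, which moved the other way, from 41.7 TPM in soma to 52.8 TPM in neurites (0.34 ± 0.09, adjusted p = 0.0241, limma on gene sums).

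**Figure D2:**
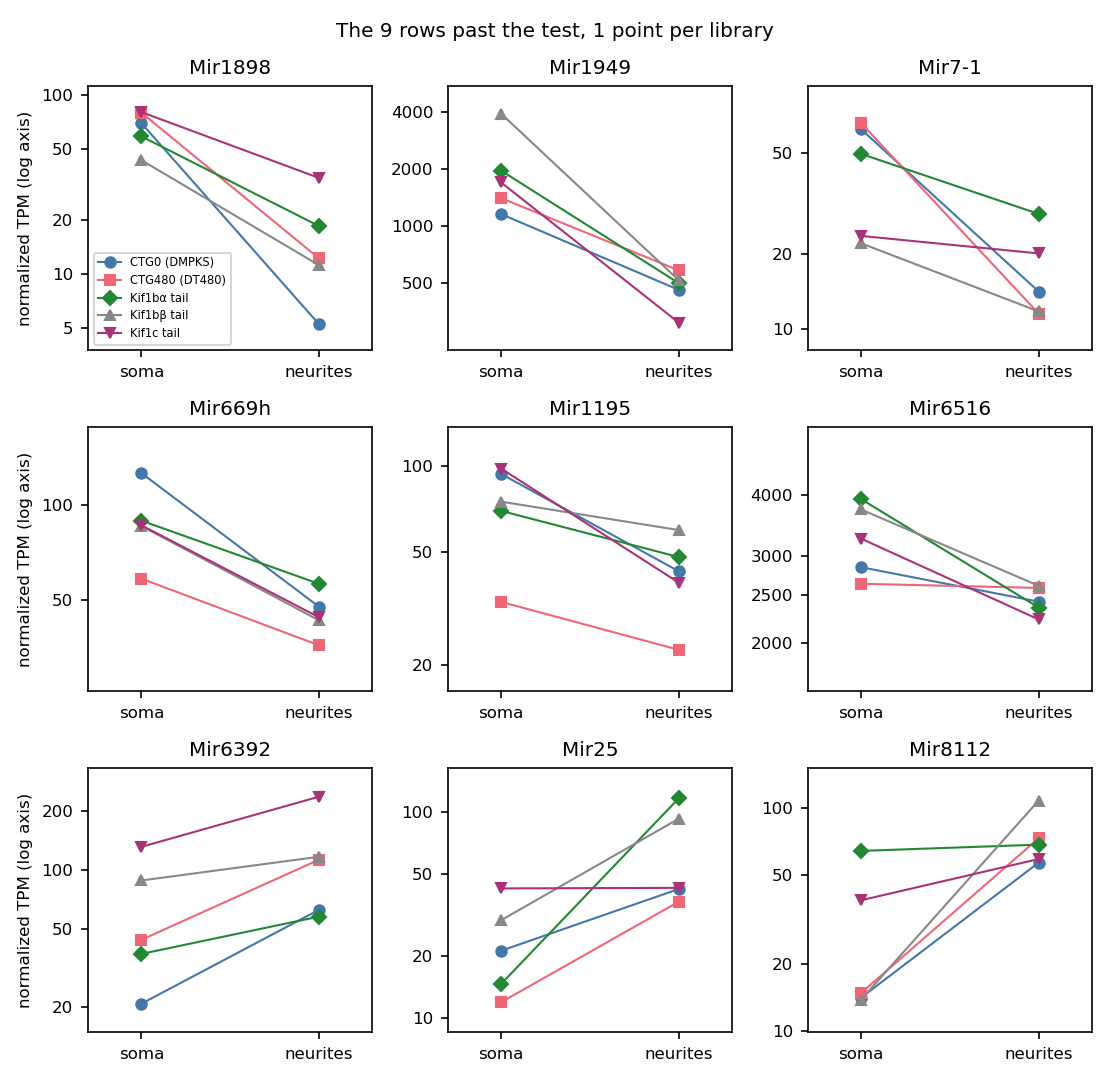
Normalized TPM (log axis) of the 9 called rows in the soma and neurite library of each transfection, joined by a line. Mir1898, Mir1949, Mir669h and Mir6516 have no overlap between fractions, and the lines of Mir25 and Mir8112 differ most in slope among transfections.

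Among the rows higher in neurites, Mir8112 lies at chr6:71271671-71271801 and shares 125 nt with Krcc1. It had 14.1 TPM in soma with CTG0, 14.8 with CTG480, 64.3 with the Kif1bα tail, 13.8 with the Kif1bβ tail and 38.6 with the Kif1c tail. In neurites it had 56.9, 73.2, 68.6, 108 and 59.1 TPM. The soma values of the Kif1bα and Kif1c tails stood above the other soma values, and the Kif1bα pair was nearly level. The ratio was 1.60 ± 0.42 (adjusted p = 0.0339, limma), and it did not pass without the pair of CTG0 (0.0945), CTG480 (0.102) or the Kif1bβ tail (0.0816).

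Mir25 belongs to the miR-106b-25 cluster, a relative of miR-17-92, in the gene of the replication helicase subunit Mcm7 (chr5:138165321-138165404, on a retained intron). Soma values were 21.2 TPM with CTG0, 11.9 with CTG480, 14.6 with the Kif1bα tail, 29.7 with the Kif1bβ tail and 42.4 with the Kif1c tail. Neurite values were 42.2, 36.6, 116, 92.4 and 42.7 TPM. Neurites were higher in 5 of 5 transfections, by almost nothing in the Kif1c pair (ratio 0.01) and most in the Kif1bα pair (2.98). The mean ratio was 1.44 ± 0.38 (adjusted p = 0.0338, limma). It was not called without the pair of CTG0 (0.0666), CTG480 (0.0943), the Kif1bα tail (0.0505) or the Kif1bβ tail (0.0900).

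Mir6392, in an intron of the lipase gene Pnpla3 (chr15:84168270-84168377), had 20.9 TPM in soma with CTG0, 44.2 with CTG480, 37.4 with the Kif1bα tail, 88.6 with the Kif1bβ tail and 132 with the Kif1c tail. Neurites had 62.9, 113, 58.0, 117 and 237 TPM. The transfections differed more than the fractions did, and the Kif1c pair was highest in both. The ratio was 0.97 ± 0.18 (adjusted p = 0.0109, limma), and without transfection as a block it did not pass (adjusted p = 0.180).

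Several rows came near the threshold. Mir186, in an intron of Zranb2 (a splicing factor), had 77.6 TPM in soma with CTG0, 66.0 with CTG480, 104 with the Kif1bα tail, 124 with the Kif1bβ tail and 87.0 with the Kif1c tail, and 17.8, 77.2, 49.4, 15.4 and 40.9 TPM in neurites. Only the CTG480 pair had the higher value in neurites. Its ratio was −1.41 ± 0.43 (adjusted p = 0.0507, limma), and it passed without the CTG480 pair (adjusted p = 0.0265). Mir1894, in Ppp1r10 (a regulatory subunit of protein phosphatase 1), was lower in neurites in 5 of 5 transfections, with 280 ± 44.7 TPM in soma against 188 ± 53.5 in neurites (SD, n = 5; ratio −0.61 ± 0.20, adjusted p = 0.0613). Mir3084-1 had 28.2 ± 14.3 TPM in soma and 14.5 ± 12.03 TPM in neurites (SD, n = 5; ratio −1.12 ± 0.39, adjusted p = 0.0788), and it passed without the CTG480 pair (0.0357). So did Mir3113 (0.0213), which stood at −0.47 ± 0.31 over the 5 pairs. The other rows of high level, Mir3473f, Mir3064 and Mir5125, had ratios of −0.15, 0.29 and −0.39 and did not pass (adjusted p = 0.570, 0.543 and 0.189, limma).

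The miR-17-92 cluster is a primary RNA with several hairpins, known for promoting proliferation in tumours, and Mir18, Mir19a and Mir20a of it had a row. Its host transcript Mir17hg had 4.94, 6.58, 7.18, 5.58 and 5.24 TPM in soma and 6.01, 5.29, 8.05, 7.58 and 7.02 TPM in neurites, in the order CTG0, CTG480, Kif1bα, Kif1bβ and Kif1c tail. These values overlapped (ratio 0.20 ± 0.15, adjusted p = 0.349, limma), and with each library divided by its sum the ratio was 0.53 (adjusted p = 0.0275).

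The hairpins cut from that transcript start within 306 nt of each other. Mir18 had 57.1 TPM in soma with CTG0, 91.4 with CTG480, 57.0 with the Kif1bα tail, 115 with the Kif1bβ tail and 97.8 with the Kif1c tail, and 110, 57.1, 73.8, 85.9 and 66.0 TPM in neurites. Its fractions overlapped and its ratio was −0.07 ± 0.25 (adjusted p = 0.853, limma), with a sign that turned to 0.26 when each library was divided by its sum. Mir19a had 39.4 TPM in soma with CTG0, 45.9 with CTG480, 58.6 with the Kif1bα tail, 112 with the Kif1bβ tail and 67.8 with the Kif1c tail, against 5.14, 94.8, 19.2, 42.1 and 16.3 TPM in neurites. The CTG480 pair was higher in neurites and the other pairs were lower (ratio −1.39 ± 0.52, adjusted p = 0.0927), and without that pair it passed at −1.995 (adjusted p = 0.0137). Mir20a had 10.4 TPM in soma with CTG0, 66.3 with CTG480, 25.4 with the Kif1bα tail, 56.3 with the Kif1bβ tail and 24.1 with the Kif1c tail, against 7.21, 11.7, 29.4, 35.0 and 20.1 TPM in neurites (ratio −0.75 ± 0.36, adjusted p = 0.169). Mir18 stood above Mir19a in 4 of 5 transfections, by 1.31 ± 2.02 (SD) on the log2 scale, and above Mir20a in 4 of 5, by 0.68 ± 0.91. These differences between neighbours were smaller than or close to their spread over transfections, and an exact test over 5 pairs cannot reach 0.05.

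The let-7 family promotes differentiation, and the Lin28 proteins block its maturation. Mirlet7d and Mirlet7f-1 lie 1817 nt apart in the noncoding 6720427I07Rik (chr13:48536012-48536114 and chr13:48537829-48537917). Mirlet7d had 21.8 TPM in soma with CTG0, 11.1 with CTG480, 40.2 with the Kif1bα tail, 11.9 with the Kif1bβ tail and 12.8 with the Kif1c tail, and 43.4, 24.1, 71.7, 71.4 and 10.3 TPM in neurites. It was higher in neurites in 4 of 5 transfections, all but the Kif1c tail (ratio 1.04 ± 0.36, adjusted p = 0.0765, limma), and without the Kif1c pair it passed (1.38, adjusted p = 0.0303). Mirlet7f-1 had 63.7 TPM in soma with CTG0, 45.0 with CTG480, 58.1 with the Kif1bα tail, 14.4 with the Kif1bβ tail and 28.6 with the Kif1c tail, and 42.7, 99.9, 9.17, 22.1 and 9.14 TPM in neurites. Its ratio was −0.62 ± 0.55 (adjusted p = 0.435), so neither row passed. The ratio of Mirlet7d exceeded that of Mirlet7f-1 in 4 of 5 transfections, by 1.66 ± 1.27 (SD).

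Host genes were set beside the rows they hold. Of 26 rows with a host gene, 23 had a host with a gene sum of at least 5 TPM. The host ratios lay between −0.49 and 0.34, and their median size of 0.15 was below that of the rows (0.39). Each row had a larger SE than its host, so the sizes are not of equal precision. Row and host had the same sign in 14 of 23 cases. Over all 46 rows 32 had a ratio below 0, with a median of −0.21, beside −0.21 over all noncoding rows and 0.01 over all rows. Sum scaling moved the median of all rows to 0.34. It turned the sign of rows a little below 0, such as Mir18 (from −0.07 to 0.26) and Mir3473f (from −0.15 to 0.19). Such counts hold only under the authors' normalization. By place the rows below 0 were 11 of the 12 intronic rows (median −0.28) and 6 of 11 in exons of noncoding transcripts (median −0.03). Both medians were smaller in size than the 0.34 of sum scaling. So were the intronic ratios of Mir8100 (−0.11), Mir6999 (−0.12), Mir3473f (−0.15), Mir677 (−0.15) and Mir3068 (−0.17). Their signs depend on the scaling, and the other intronic ratios below 0 were larger in size. The others were 1 of 3 in exons of coding transcripts, 3 of 5 with no host gene and 11 of 15 with no hairpin entry. Those with no host gene below 0 were Mir18, Mir19a and Mir20a, which lie inside the Mir17hg transcript. Mir8091 (0.28) and Mir8112 (1.60), outside it, were above 0. Differences between places were not tested.

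**Figure D3:**
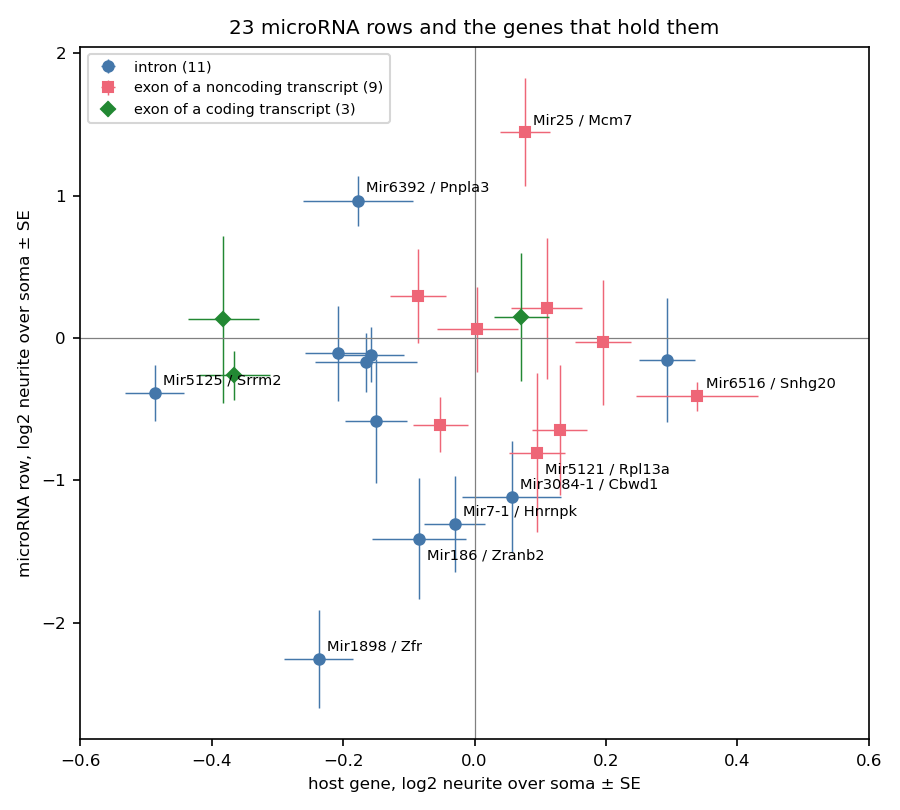
Localization ratio of 23 microRNA rows (y axis) against that of the host gene (x axis, gene sum), both ± SE from limma. Hosts lie between −0.49 and 0.34, and rows between −2.25 and 1.44.

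For the called rows, Zfr stood at −0.24 ± 0.05 (adjusted p = 0.0108) beside Mir1898 at −2.25, Hnrnpk at −0.03 ± 0.05 (0.625) beside Mir7-1 at −1.31, Mcm7 at 0.08 ± 0.04 (0.152) beside Mir25 at 1.44, and Pnpla3 at −0.18 ± 0.08 (0.128) beside Mir6392 at 0.97. The row and the host thus had ratios of different size in each of these, and of different sign for Mir6392 and Pnpla3. Krcc1 overlaps Mir8112 in part and was not counted as a host. It stood at −0.17 ± 0.06 (adjusted p = 0.0589, limma on gene sums) beside Mir8112 at 1.60, also of different sign. Mir6516 and Snhg20, given above, differed in sign as well. These rows were picked by the test on their own ratio, which favours large ratios in the row, and the difference from the host was not tested. Zranb2, the host of Mir186, stood at −0.08 ± 0.07 (0.375). The host with the lowest ratio was Srrm2, a scaffold of nuclear speckles, at −0.49 ± 0.04 (0.000579), whose intronic row Mir5125 stood at −0.39 ± 0.20 and did not pass. Levels also differed: 9 of the 23 rows had a higher mean TPM than their host, and the median row had 0.839 times the TPM of its host.

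Rows that overlap another small RNA all had a ratio below 0 (5 of 5, from −1.12 to −0.15, beside 32 of all 46 rows), with Mir6516 the only one called. Small RNA rows as classes leaned the same way, with medians of −0.92 (Snord) and −0.53 (Snora and Scarna), beside 0.01 over all rows. Signs of ratios near 0 depend on scaling. With each library divided by its sum the median of all rows was 0.34, and the ratio of Mir6516 was −0.08. The ratios of Mir677 (−0.15) and Mir3068 (−0.17) were smaller in size than that of Mir6516 before this scaling, and their signs do not hold under it. Mir5121 overlaps Snord33, a C/D box RNA that guides ribosomal RNA methylation, in Rpl13a. It had 30.5, 10.2, 43.0, 14.2 and 38.2 TPM in soma and 9.49, 12.3, 19.1, 35.0 and 5.55 TPM in neurites, in the order CTG0, CTG480, Kif1bα, Kif1bβ and Kif1c tail. Snord33 had 130, 150, 176, 389 and 316 TPM in soma and 70.5, 153, 97.4, 63.0 and 80.3 TPM in neurites. Snord33 was lower in neurites (−1.26 ± 0.37, adjusted p = 0.0452, limma), and Mir5121, at −0.81 ± 0.56, was not called (adjusted p = 0.323). In the Kif1bβ pair Snord33 was lower and Mir5121 higher in neurites.

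The microRNA rows varied widely between transfections within a fraction. Across the 5 transfections of a fraction, the SD of log2(TPM + 0.1) had a median of 0.64 in soma and 0.73 in neurites over the 46 rows, against 0.12 and 0.13 over all rows. It exceeded the 95th percentile of the 5165 coding rows with a mean of at least 20 TPM (0.24 in both fractions) for 44 of 46 rows in soma and 44 of 46 in neurites. Snord rows, which are also short and noncoding, had medians of 0.56 in soma and 0.65 in neurites (n = 51), and Snora and Scarna rows of 0.40 and 0.44 (n = 39). Within the 46 rows the SD was lowest for Mir17hg in soma (0.22) and Mir6516 in neurites (0.09), and highest for Mir466b-4 in soma (3.68) and Mir19a in neurites (1.57). It was lower in rows of higher mean TPM (Spearman's rho −0.36 in soma and −0.47 in neurites, across 46 rows of the same libraries). The short length of the hairpins, the unknown depth and the transfections cannot be told apart as parts of this spread.

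**Figure D4:**
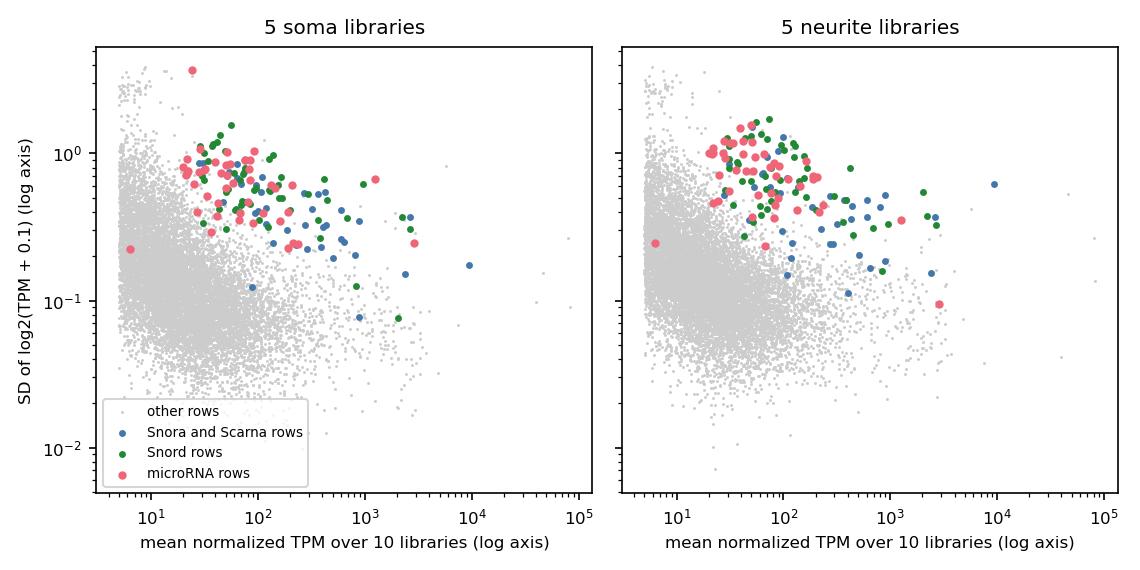
SD of log2(TPM + 0.1) over the 5 soma libraries (left) and the 5 neurite libraries (right) against mean TPM (all axes log), 1 point per row. MicroRNA rows lie near Snord rows and mostly above other rows of the same mean.

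The second question was whether the localization ratio of the rows differed with CTG480 or a kinesin tail. Differences of localization ratios compare 1 pair of libraries with 1 other pair, have no replicate check and carry no p, and a difference of at least 1 on the log2 scale was counted. Between CTG480 and CTG0, 8 of the 46 rows were lower by 1 or more (17.4%, beside 2.86% of all rows) and 14 higher (30.4%, beside 2.88%). Both shares exceeded the background, as did those of the Snord rows, of which 3 were lower and 23 higher among 51. The median difference was 0.34 over the 46 rows and 0.96 over the Snord rows, and 24 microRNA rows differed by less than 1.

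Mir1249 had the lowest difference, −2.83: with CTG0 it had 23.3 TPM in soma and 57.0 in neurites, and with CTG480 33.3 in soma and 11.4 in neurites. For Mir20a the difference was −1.97, from 10.4 and 7.21 TPM to 66.3 and 11.7 TPM, so most of it came from the soma values. Mir18 followed at −1.62 and Mir7079, on a retained intron of the ribosomal protein gene Rpl13, at −1.48. Mir7079 went from 28.2 TPM in soma and 51.8 in neurites with CTG0 to 21.8 and 14.3 TPM with CTG480. In 3 of these 4 rows, all but Mir20a, the ratio changed from above 0 with CTG0 to below 0 with CTG480.

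In the other direction, Mir19a had a difference of 3.96, since its neurite value was 5.14 TPM with CTG0 and 94.8 TPM with CTG480 while soma held 39.4 and 45.9 TPM. Mir7652 had a difference of 2.89, from 115 TPM in soma and 72.3 in neurites to 39.5 and 185 TPM. For Mir3084-1 it was 2.74, from 31.7 and 6.07 TPM to 27.2 and 35.5 TPM, and for Mir186 it was 2.34, from 77.6 and 17.8 TPM to 66.0 and 77.2 TPM. In these rows the ratio was below 0 with CTG0 and above 0 with CTG480. The cluster mates Mir19a, Mir18 and Mir20a thus lay at opposite ends of the comparison.

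**Figure D5:**
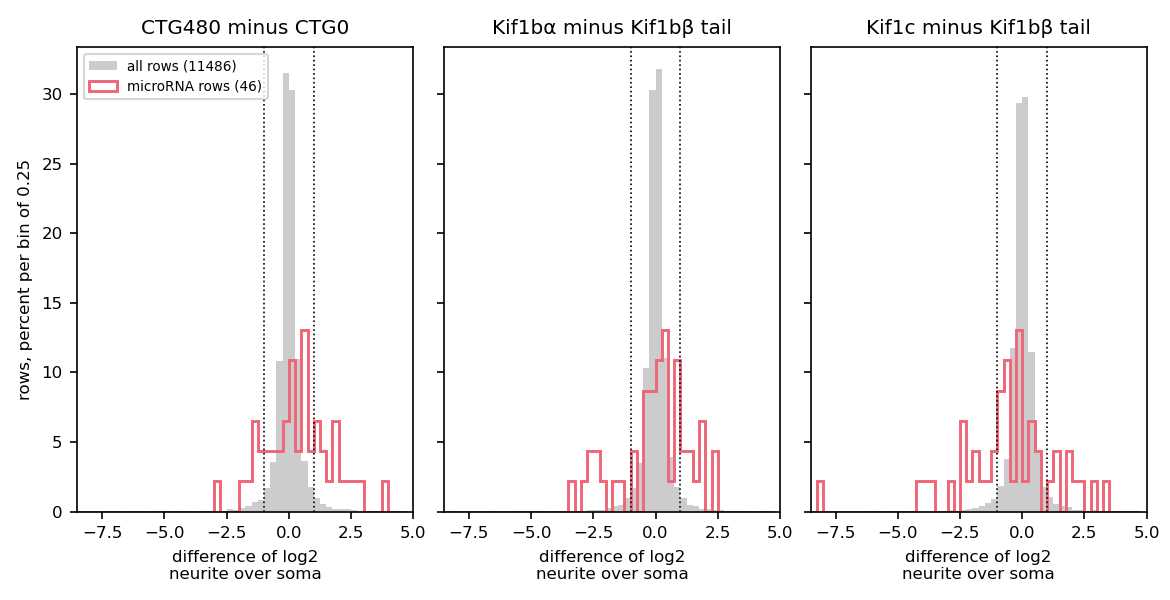
Distribution of the difference in localization ratio (x axis) as percent of rows per bin of 0.25 (y axis) for all 11486 rows (grey) and the 46 microRNA rows (outline), with dotted lines at −1 and 1. The microRNA rows spread past both lines in each comparison, and the bin farthest to the left in the Kif1c comparison is Mir466b-4, listed at 0 in the control soma library.

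The Kif1bα and Kif1c tails were both compared with the Kif1bβ tail, so that these comparisons share their control pair. With the Kif1bα tail, 9 rows were lower by 1 or more (19.6%, beside 2.83% of all rows), 10 were higher (21.7%, beside 2.89%) and 27 differed by less. With the Kif1c tail, 15 were lower (32.6%, beside 2.87%), 9 were higher (19.6%, beside 3.10%) and 22 differed by less. Of 51 Snord rows 7 were lower and 13 higher with the Kif1bα tail, and 8 and 10 with the Kif1c tail. Of 39 Snora and Scarna rows these numbers were 4 and 2, and 8 and 3. With 1 pair per transfection, an effect of a plasmid and the wide spread of such rows between libraries cannot be told apart. Mir466b-4 counts among the lower rows of all 3 comparisons, and without it 7 rows were lower with CTG480, 8 with the Kif1bα tail and 14 with the Kif1c tail, of 45. The median difference of the 46 rows was 0.24 for Kif1bα and −0.57 for Kif1c, against 0.01 and 0.00 over all rows and 0.25 and 0.09 over the Snord rows. Over all 3 comparisons, 11 rows stayed within 1 each time, among them Mir6516, Mir669h and Mir1949.

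Mirlet7f-1 was lowest with the Kif1bα tail at −3.27, from 14.4 TPM in soma and 22.1 in neurites with the Kif1bβ tail to 58.1 and 9.17 TPM. Mir8112 followed at −2.87, from 13.8 and 108 TPM to 64.3 and 68.6 TPM. Mir466b-4, whose soma values here were 0 and 0.49 TPM, is given no difference, though the counts hold it. Mir677, in an intron of Atp5b (the beta subunit of ATP synthase), was next at −2.54, from 29.7 and 90.9 TPM to 102 and 53.4 TPM. In each of these the soma value was higher and the neurite value lower than with the Kif1bβ tail.

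The highest differences with the Kif1bα tail were those of Mir3064, in the RNA helicase gene Ddx5, and of Mir7079. Mir3064 stood at 2.43, from 232 TPM in soma and 127 in neurites with the Kif1bβ tail to 153 and 448 TPM. Mir7079 stood at 2.26, from 48.1 and 7.17 TPM to 15.6 and 11.3 TPM, and Mir1946b at 1.99, from 40.2 and 7.49 TPM to 19.3 and 14.4 TPM. Mir186 was next at 1.92, from 124 and 15.4 TPM to 104 and 49.4 TPM. The Kif1bβ pair gave the lowest ratio of all transfections for Mir3064, Mir7079, Mir1946b and Mir186.

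With the Kif1c tail, Mir5121 had the lowest difference after Mir466b-4, −4.05, from 14.2 TPM in soma and 35.0 in neurites with the Kif1bβ tail to 38.2 and 5.55 TPM. Mir3101, in the gene of the small GTPase Rab4b, stood at −3.98, from 14.3 and 75.6 TPM to 28.5 and 9.42 TPM. Mir669a-3 stood at −3.56, from 32.4 and 112 TPM to 166 and 48.5 TPM. These rows had their highest ratio of the 5 transfections with the Kif1bβ tail and their lowest with the Kif1c tail.

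The highest difference with the Kif1c tail was that of Mir8115, in an exon of P2rx7 (an ATP-gated channel), at 3.40, from 85.2 TPM in soma and 32.2 in neurites to 19.1 and 76.8 TPM. Mir1946b stood at 2.88, from 40.2 and 7.49 TPM to 18.5 and 25.7 TPM, and Mir7079 at 2.43, from 48.1 and 7.17 TPM to 12.5 and 10.2 TPM. Mir3470b stood at 2.18, from 38.6 and 14.6 TPM to 30.5 and 52.6 TPM, and its sequence occurs in many transcripts. Mir1946b and Mir7079 appear with both tails beside the shared Kif1bβ values, which were the lowest neurite value of either row.

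Genes that make or use microRNAs were given next, as gene sums. The list was drawn up from general knowledge, with 45 symbols including aliases, of which 43 had a row and 41 a mean of at least 5 TPM. Of these, 7 were higher in neurites (beside 19.4% of all 9853 genes tested) and 7 were lower (beside 18.6%), and 27 did not pass. The median ratio was 0.04, against 0.01 over all genes. All levels here are sums of transcript TPM, and the called ratios lay between 0.12 and 0.54 in size.

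The nuclear steps differed little: Drosha had 50.4 TPM in soma against 49.5 in neurites, its partner Dgcr8 at 21.3 and 22.7 TPM, and the export receptor Xpo5 at 41.9 and 41.0 TPM, and none passed the test. Ran, the GTPase that exportin 5 needs, rose from 229 ± 3.52 to 276 ± 10.2 TPM (SD, n = 5; ratio 0.27 ± 0.04, adjusted p = 0.00195, limma). Srsf3, a splicing factor that also aids Drosha, was higher at 143 against 125 TPM (0.19, adjusted p = 0.00893). So were Hnrnpa1, which binds Mir18 hairpins, at 955 against 816 TPM (0.23, 0.0107), and Ilf2, at 111 against 96.1 TPM (0.21, 0.00645). Lin28b, which blocks let-7 maturation, was lower at 7.81 against 9.30 TPM (−0.25, 0.0207), as was Zcchc11, which adds uridine to let-7 precursors, at 27.8 against 33.8 TPM (−0.29, 0.00567). Lin28a, the other Lin28 protein and the one of higher level, had 37.2 TPM in neurites against 35.0 in soma, with the neurite value above in 5 of 5 transfections, and did not pass (0.09, 0.101).

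Among cytoplasmic factors, Dicer1 had 17.6 TPM in soma and 16.5 in neurites and did not pass. Translin and its partner, RNA-binding proteins known from dendritic mRNA transport and from removal of the passenger strand, were both higher in neurites: Tsnax rose from 31.4 ± 2.61 to 45.4 ± 2.07 TPM (ratio 0.54 ± 0.07, adjusted p = 0.00123) and Tsn from 27.2 ± 1.36 to 35.3 ± 1.47 TPM (0.38 ± 0.05, 0.00217; SD, n = 5, limma). Snd1, a nuclease of the silencing complex, was higher at 175 against 158 TPM (0.15, 0.0226). The 3 GW182 proteins that join Argonaute to mRNA decay were all lower: Tnrc6a at −0.26 (0.00386), Tnrc6b at −0.19 (0.0135) and Tnrc6c at −0.26 (0.00281). Ago2, the slicing Argonaute, was lower at 66.2 against 71.7 TPM (−0.12, 0.0476), and the nuclear exonuclease Xrn2 at 61.9 against 70.2 TPM (−0.18, 0.0110). With each library divided by its sum, 35 genes of the list were higher and none had a ratio below 0. For this scaling the background is given only by transcript row, not by gene sum: 6656 of all 11486 rows were also higher. The ratios of the 7 lower genes became 0.05 to 0.22, below the median of 0.34 that this scaling gave all transcript rows.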

How the data were processed

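Signal values are, per the methods of the study and the submitters' processing notes, TPM that the authors made from bcl2fastq 2.20 reads with kallisto 0.43.0 on mm10 (GRCm38) RefSeq transcripts, normalized between libraries by cyclic loess and deposited as a linear table. Rows the authors left out are not given in the sources used here. A second deposited table of log2 localization ratios holds no microRNA row and was not used. The values hold no counts, so no counting interval is given.

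All 10 columns were mapped from their names. Rows without a gene or from plasmids (8) and 64 rows identical to an earlier row were left out, and rows with a mean under 5 TPM were not tested. log2(TPM + 0.1) was fitted with limma 3.58.1 (R 4.3.3, trended eBayes, transfection as block) over 11486 rows, or 9853 gene sums, with Benjamini-Hochberg adjustment at 0.05. On simulated data 84 of 100 rows changed by 1 and 93 of 100 changed by 2 on the log2 scale were recovered, with 9 false calls, among 11486 rows. The changed rows were drawn from all rows, each with its own residual SD. MicroRNA rows vary more (median SD within a fraction 0.64 and 0.73, against 0.12 and 0.13 over all rows). The recovery therefore does not hold for them, and a microRNA row that did not pass is not shown to be unchanged. Deviations of soma and neurite libraries of the same transfection correlated at −0.03 to 0.07, and of other pairs at −0.10 to 0.12, so the block follows the ratio taken within each transfection in the study, not a correlation in the data. Differences between transfections have no test. Host genes and places came from GENCODE vM21, and sequences from RefSeq on GRCm38.p6. Python 3.11.15, numpy 2.4.6 and pandas 2.3.3 were used for the rest.

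The rows and lists were chosen with earlier results of these data known. Rows were named by rule: those past the test, the 8 of highest mean, in each comparison of transfections the 4 rows at either end, members of the miR-17-92 and related clusters and of the let-7 and miR-7 families, the 3 rows on either side of the minimum, their hosts, and pathway genes past the test. Mir3084-1, Mir669g, Mir669j and Mir669a-3 beside the test, Snord33, and the unchanged pathway genes were named after their values were seen. Alternatives were other pseudocounts (0.01 and 1 TPM) and minimums (0, 1 and 20 TPM), other scalings, no block, no trend, identical rows kept, and each transfection left out.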

Additional observations from a re-analysis of the deposited data

Results flagged for a closer look

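The 5 libraries of each fraction were searched for a library far from the others, for each of the 46 rows on the log2 scale, by Dixon's gap over range at the 95% value of 0.71 for 5 samples. Of 92 groups 1 was singled out, where chance gives about 1 in 20. In neurites, Mir8091 had 52.2 TPM with CTG0, below the other neurite libraries at 96.6 to 123 TPM (gap over range 0.721).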

How the results depend on the processing

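The fit holds 1 library per transfection and fraction, and unknown depth limits the precision of short rows. Counts of differences between transfections stayed within 1.5 times under every alternative run. The rows higher in neurites numbered 3, but 1 with no minimum, 7 with each library divided by its sum, and 1 to 4 when a transfection was left out (1 without CTG0, CTG480 or the Kif1bβ tail, 2 without the Kif1bα tail, 4 without the Kif1c tail). The lower rows numbered 6, 4 to 9 when a transfection was left out (9 without CTG480), and 4 with no minimum. Pathway genes past the test numbered 14, 11 to 15 when a transfection was left out, and 35 with sum scaling. Under sum scaling 6656 of all 11486 rows were called higher and 214 lower. Of the 9 called rows, Mir669h, Mir1949, Mir1898, Mir6392 and Mir1195 passed in 5 of 5 fits without a transfection, Mir8112 in 2, and Mir6516, Mir7-1 and Mir25 in 1. Without the replicate block, Mir6392 (0.97) and Mir1195 (−0.78) did not pass, Mir1894 and Mir186 did, and 2 rows were called higher, 7 lower and 16 pathway genes. Signs turned only in rows that did not pass. Among the rows followed one by one, sum scaling gave 0.26 for Mir18 and 0.19 for Mir3473f. Other rows a little below 0 were not listed. Leaving out a transfection gave −0.32 to 0.080 for Mir18, −0.30 to 0.040 for Mir3473f, −0.020 to 0.59 for Mir3064 and −0.25 to 0.35 for Mir7115. Only part of the 46 rows was followed in this way. Mir8100, at −0.11, had a ratio above 0 in every pair but that of the Kif1c tail, so its sign also turns without that pair. The cause of these changes was not tested.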
